A study of Mus musculus with 54 samples.

Results

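Primary mouse microglia that had been loaded with alpha-synuclein (aSyn) and then kept for 60 min with unloaded microglia were compared with aSyn-loaded microglia that had not been co-cultured. The comparison holds 7 of the 54 libraries: the 3 donor libraries at 60 min, from experiments 1, 3 and 4, and the 4 aSyn-only libraries, from experiments 1 to 4. They were chosen by their titles. Experiment here means the replicate number that ends each title, and the labels do not say which numbers are separate cultures. That number pairs 3 donor libraries with 3 aSyn-only libraries. The aSyn-only library of experiment 2 has no same-numbered donor library at 60 min among those analysed here.

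All cells came from C57BL/6 mice with no allele named in the labels. They were grown from neonatal brains, with the cells of several brains in a flask, and were shaken loose from the astrocytes beneath them. Both groups received 1 µM aSyn carrying a fluorescent Atto dye for 14 h. Donors were then mixed with acceptor microglia that carried a violet dye and no aSyn, and were recovered by flow sorting. The labels do not say whether the aSyn-only cells were sorted, so 60 min with acceptors and the sort itself cannot be told apart. Passage was 3 in experiment 1, 1 in experiment 2 and 2 in experiments 3 and 4, the same for both libraries of a pair. The labels also name no separate animals behind the experiment numbers. In the main fits, p-values therefore measure only a spread between libraries, estimated over all 14 groups of the series.

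Microglia are the resident macrophages of the brain. They take up aggregated aSyn, a neuronal protein that accumulates in Parkinson disease, and degrade it in lysosomes. Loaded microglia can pass aSyn to neighbouring microglia through thin actin-based bridges called tunnelling nanotubes, and organelles such as mitochondria can travel the same way. Macrophages that are replated, touched or stressed switch on immediate-early genes within minutes: these are genes for transcription factors such as Fos, Jun and Egr1, transcribed without new protein synthesis. One arm of that programme runs through serum response factor (SRF), which binds a DNA element called the CArG box and works with cofactors that sense free actin.

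Libraries were read from the 3′ end of each transcript, with 11571623 to 13939113 counts and 13633 to 14332 genes detected per library. Levels are given as CPM, the counts of a gene scaled to a common library size. Microglial markers were abundant in all 7 libraries, but their sum over 14 genes was 13483 to 18179 CPM in experiments 1 to 3 and 4966 to 5292 CPM in both libraries of experiment 4. Itgam and Ptprc did not follow the sum, while each of the other markers was lowest in experiment 4. Itgam was at 599 and 651 CPM in experiment 4 against 181 to 406 CPM elsewhere. Ptprc was at 462 and 519 CPM against 328 to 499 CPM. The homeostatic markers Tmem119 and P2ry12 were low throughout, at no more than 13.1 and 10.50 CPM. Experiment 4 was also the experiment with the highest share of the ribosomal RNA precursor Rn45s (17.3 and 17.7%, against 4.78 to 9.24% elsewhere), and the identifiers in its labels come from another number series than those of experiments 1 to 3. Astrocyte markers summed to 11.3 to 39.4 CPM, oligodendrocyte lineage markers to 142 to 336 CPM, neuronal markers to 1.63 to 10.9 CPM and T and B cell markers to 0.349 to 9.88 CPM. In bulk RNA, fewer cells of a type and less RNA per cell cannot be told apart.

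Donors at 60 min and aSyn-only cells did not differ detectably in any gene at the threshold used. Of 13169 genes tested, 0 (0%) had an adjusted p under 0.05 in edgeR's quasi-likelihood test with Benjamini-Hochberg adjustment, and DESeq2 also called 0. With the experiment number as a block the count was again 0 (0%), with a smallest adjusted p of 0.252. At an unadjusted p under 0.05 there were 276 genes without the block, 142 higher (1.08%) and 134 lower (1.02%), and 719 with it, 378 higher (2.87%) and 341 lower (2.59%). For the median gene the 95% interval of the log2 difference reached 0.64 to either side without the block and 0.44 with it. After adjustment over all genes, larger differences also went uncalled. The fitted difference exceeded 2-fold in 706 genes without the block and in 704 with it. Medians over all genes were near 0 in each experiment, at -0.01, 0.00 and -0.01 on the log2 scale.

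The genes described next are therefore the ones that lead a ranking, not genes that passed the test. They are the 12 higher and 12 lower genes with the smallest p in the blocked fit among genes of at least 5 CPM whose difference had 1 direction in all 3 pairs. Over all genes tested, 11.4% were higher and 12.5% lower in all 3 pairs. In 10 of the 12 higher and 10 of the 12 lower genes the largest of the 3 differences was that of experiment 1. Donor and aSyn-only libraries did not overlap for 3 of the higher genes (Fbxo46, Gm2260 and Prkab2) and 4 of the lower ones (Cdk5rap3, Ppp1ccb, Wwp2 and Dapk3). Over all genes tested, donors stood wholly above in 1.18% and wholly below in 1.24%.

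**Figure D1:**
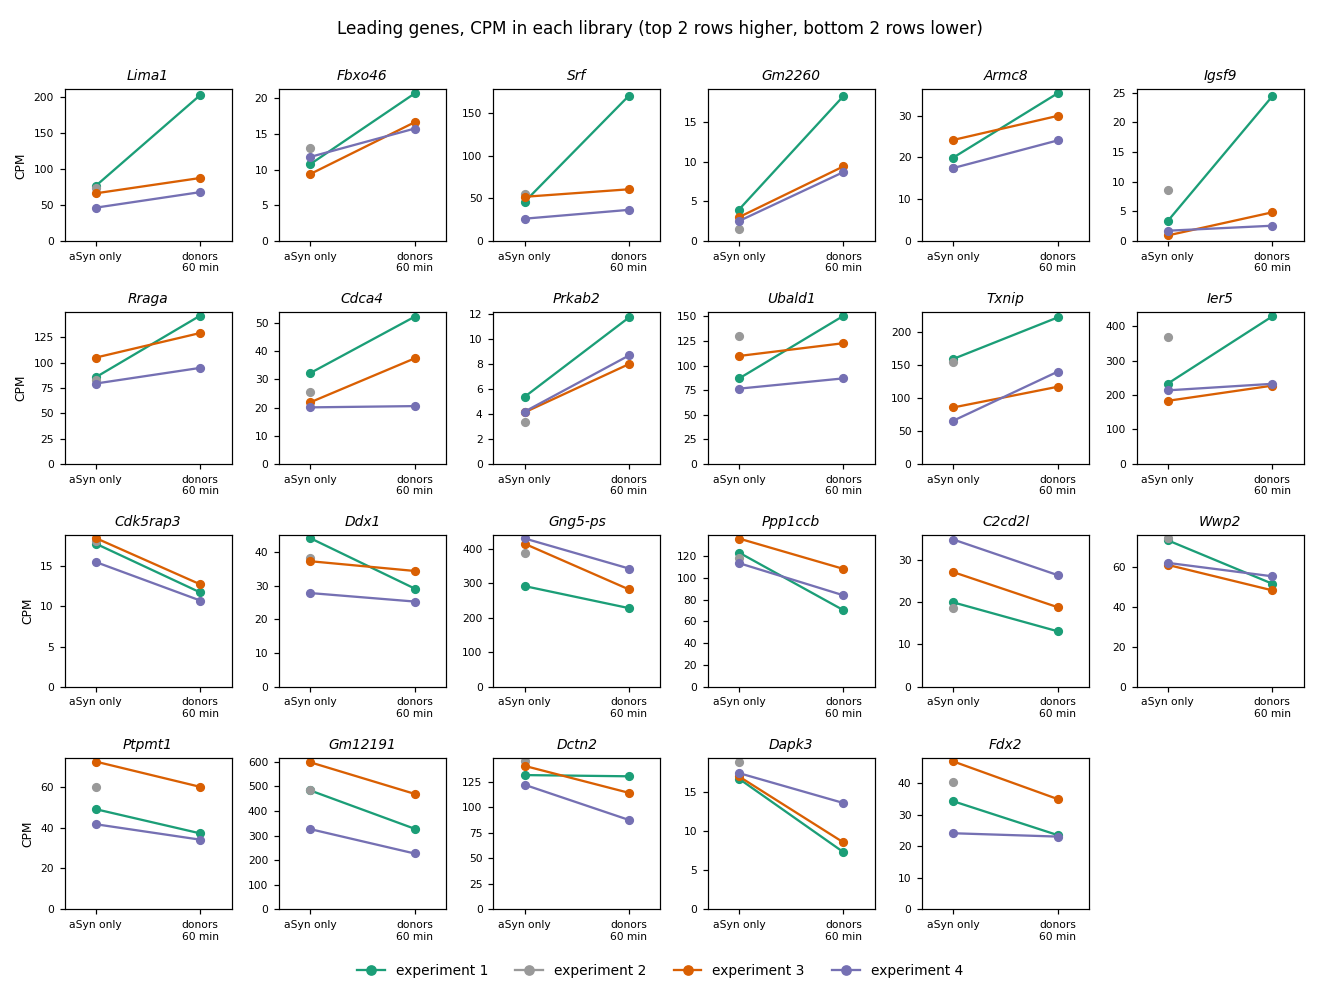
CPM of the 12 leading higher genes (top 2 rows) and 11 of the 12 leading lower genes (bottom 2 rows) in aSyn-only libraries (left of each panel) and donors at 60 min (right), on a linear axis from 0. Lines join libraries of the same experiment and the grey point is the aSyn-only library of experiment 2; the steepest line is most often that of experiment 1, as in Srf, from 45.9 to 170 CPM.

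Of the leading higher genes, 3 carry the SRF element near their start site, and those promoters are shown here because SRF itself is among the leading genes. The CArG box was searched on both strands, from 250 bases before to 50 bases after each RefSeq start (build GRCm38.p6). Capitals mark the matches, the sequences run 5′ to 3′ on the strand of the gene, and positions count from the start site.
Srf (chr17:46556113-46556412, minus strand): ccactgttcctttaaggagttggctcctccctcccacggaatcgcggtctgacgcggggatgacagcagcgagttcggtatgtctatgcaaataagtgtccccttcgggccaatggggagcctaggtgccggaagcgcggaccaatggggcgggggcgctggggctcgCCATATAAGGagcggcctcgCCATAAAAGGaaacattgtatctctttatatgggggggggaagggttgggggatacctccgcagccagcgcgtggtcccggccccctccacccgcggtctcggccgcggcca
Lima1 (chr15:99820100-99820399, minus strand): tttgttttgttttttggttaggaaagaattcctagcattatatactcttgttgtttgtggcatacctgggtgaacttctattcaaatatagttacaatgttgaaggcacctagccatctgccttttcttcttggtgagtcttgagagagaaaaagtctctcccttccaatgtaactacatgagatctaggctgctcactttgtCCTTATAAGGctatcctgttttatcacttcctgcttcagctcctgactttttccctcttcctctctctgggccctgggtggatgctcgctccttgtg
Prkab2 (chr3:97657962-97658261, plus strand): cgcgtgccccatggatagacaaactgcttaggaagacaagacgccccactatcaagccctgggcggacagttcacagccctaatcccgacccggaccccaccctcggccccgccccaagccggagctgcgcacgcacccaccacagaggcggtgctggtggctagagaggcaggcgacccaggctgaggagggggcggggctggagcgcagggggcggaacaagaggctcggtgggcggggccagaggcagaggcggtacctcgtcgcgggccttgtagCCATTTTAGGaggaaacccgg

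Srf has 2 matches, 77 and 57 bases before its start, Lima1 has 1, 42 bases before, and Prkab2 has 1, 34 bases after. The Lima1 window lies inside the annotated gene, at the start RefSeq gives, and not at its outer end. A promoter was found for 11 of the 12 leading higher genes, and these 3 make 27.3% of them. Srf, the reason for showing these promoters, is itself 1 of the 3. The genes come from a ranking of these same data, so the share is no test of enrichment. The same search matched 166 of 10420 tested genes with a promoter (1.59%) and 0 of the 8 leading lower genes that had one. In the list of Egr, Ier and Nr4a genes, which also holds Srf and Zfp36, 3 of 11 promoters matched. These were the promoters of Egr2, Srf and Zfp36, and among AP-1 subunits 0 of 10 matched. A match is a description of the letters in the window and no measure of SRF binding. Bases outside the window were not searched, so a gene without a match can still hold a CArG box further away.

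Srf (chr17:46548329-46556175) encodes serum response factor. Its level in aSyn-only libraries 1 to 4 was 45.9, 54.6, 51.8 and 26.2 CPM, and in donors 170, 60.5 and 36.5 CPM in experiments 1, 3 and 4. The donor was higher in every pair, but while the donor of experiment 1 stood far above all aSyn-only libraries and that of experiment 3 just above them, the donor of experiment 4 lay below 3 of them, and the groups overlapped. The blocked difference was 2.00-fold (95% interval 1.46 to 2.75; unadjusted p = 7.4e-05; adjusted p = 0.252), and the unblocked log2 difference was 1.00 ± 0.42 (SE; unadjusted p = 0.02363; adjusted p = 1).

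Lima1 (chr15:99778470-99875456) encodes LIMA1, also called EPLIN, a protein that bundles and stabilises actin filaments. It was at 76.6, 73.6, 66.2 and 46.4 CPM in aSyn-only libraries and at 202, 87.5 and 67.9 CPM in donors. As with Srf, experiment 1 held the large difference and experiment 4 the lowest level in both groups. The blocked difference was 1.87-fold (95% interval 1.44 to 2.43; adjusted p = 0.252). Left out of the blocked fit, the donor library of experiment 3 took the adjusted p of both Srf and Lima1 to 0.0185, the only 2 genes called in that fit.

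Prkab2 (chr3:97658193-97673812) encodes a regulatory beta subunit of AMP-activated protein kinase, the cell's sensor of low energy. It was the most even of the 3: aSyn-only libraries were at 5.38, 3.34, 4.13 and 4.19 CPM and donors at 11.8, 8.01 and 8.70 CPM. All donors stood above all aSyn-only libraries, with log2 differences of 1.11, 0.93 and 1.03 in the 3 pairs. The blocked difference was 2.16-fold (95% interval 1.42 to 3.28; adjusted p = 0.558).

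The other leading higher genes fall into no single group. Fbxo46, an F-box protein of ubiquitin ligases, was at 10.8, 13.1, 9.38 and 11.8 CPM in aSyn-only libraries and 20.7, 16.6 and 15.75 CPM in donors, a blocked fold of 1.64 (1.31 to 2.04; adjusted p = 0.252) with no overlap. Rraga, a Rag GTPase that brings mTORC1 to the lysosome when amino acids are present, was at 79.4 to 105 CPM and then 147, 129 and 94.9 CPM. Txnip, the glucose-induced inhibitor of thioredoxin, differed most in experiment 4, from 65.4 to 140 CPM, and less in experiment 1 (159 to 222 CPM) and experiment 3 (85.4 to 117 CPM). Its aSyn-only libraries ranged up to 159 CPM, so the groups overlapped.

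Ier5, an immediate-early gene that cooperates with heat shock factor, was at 233.1, 370, 183 and 213 CPM in aSyn-only libraries and 428, 227 and 232.3 CPM in donors. Its blocked fold was 1.38 (1.15 to 1.65; adjusted p = 0.558), while the unblocked log2 difference of 0.24 ± 0.37 was smaller than its error. Igsf9, a cell adhesion protein of the immunoglobulin family, was at 3.39, 8.67, 0.954 and 1.75 CPM and then 24.4, 4.84 and 2.59 CPM. Igsf9 in the aSyn-only library of experiment 2 was thus higher than in 2 of the 3 donors. Armc8, part of a ubiquitin ligase complex, Cdca4, a regulator of the cell cycle, and Ubald1 had blocked log2 differences of 0.58, 0.53 and 0.37. Gm2260 is annotated as a pseudogene, and reads of its parent copy could have been counted there, so its identity is uncertain: it was at 1.56 to 3.98 CPM in aSyn-only libraries and 8.70 to 18.3 CPM in donors.

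Among the leading lower genes, Dapk3, a kinase that phosphorylates myosin light chain, had the largest difference. It was at 16.7, 18.8, 16.9 and 17.4 CPM in aSyn-only libraries, a narrow range, and at 7.30, 8.54 and 13.6 CPM in donors. All donors lay below all aSyn-only libraries, with a blocked fold of 0.565 (95% interval 0.394 to 0.810; adjusted p = 0.748). Cdk5rap3, an adaptor of the UFM1 protein-tagging system at the endoplasmic reticulum, was at 15.5 to 18.5 CPM and then 11.75, 12.8 and 10.7 CPM, with log2 differences of -0.60, -0.53 and -0.53. It was as even across experiments as Prkab2 and had an adjusted p of 0.461.

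Wwp2, a ubiquitin ligase of the NEDD4 family, was at 61.3 to 75.1 CPM in aSyn-only libraries and 48.5 to 55.6 CPM in donors, again with no overlap. Ptpmt1, a mitochondrial phosphatase needed to make cardiolipin, and Fdx2, a mitochondrial ferredoxin of iron-sulfur cluster assembly, had blocked folds of 0.776 (0.669 to 0.901) and 0.780 (0.663 to 0.918). Dctn2, a subunit of the dynein activator dynactin, was level in experiment 1 (132 and 130 CPM) and lower in the donor of experiment 4 (122 and 87.5 CPM). Ddx1, an RNA helicase, and C2cd2l, a lipid transfer protein at contacts between endoplasmic reticulum and plasma membrane, had blocked log2 differences of -0.34 and -0.52. Gng5-ps, Ppp1ccb and Gm12191 are annotated as pseudogenes, with the same doubt about identity as Gm2260.

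Use of strand in the counting is not given in the sources used here. Genes on either strand overlap Lima1, Fbxo46, Srf, Prkab2 and Txnip among the leading higher genes, and Cdk5rap3, Wwp2, Ptpmt1, Gm12191 and Dapk3 among the lower ones. For these, reads of the overlapping gene cannot be told apart.

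The 12 AP-1 subunits, which pair as Fos, Jun, Atf and Maf proteins on DNA, gave no common direction. None was called, none reached an unadjusted p under 0.05 with the block, 2 were higher and 1 lower in all 3 pairs, and the median blocked log2 difference was 0.15 against -0.01 over all genes. Fos was at 277, 188, 237 and 124 CPM in aSyn-only libraries and 201, 175 and 227.6 CPM in donors. It was lower in the donors of experiments 1 and 3 and higher in that of experiment 4 (log2 -0.46, -0.44 and 0.87), and the blocked difference was -0.02 ± 0.38. Jun differed mainly in experiment 1, from 66.6 to 136 CPM, and Jund likewise, from 162 to 270 CPM. Fosb and Fosl2 were higher in all 3 donors of their pairs, by 0.33, 0.28 and 1.12 and by 1.49, 0.18 and 0.66 on the log2 scale, with blocked p-values before adjustment of 0.347 and 0.16. Junb was at 218 to 365 CPM in aSyn-only libraries and 317 to 400 CPM in donors. It was higher in the donors of experiments 1 and 4 and lower in that of experiment 3 (log2 0.59, 0.69 and -0.20). In the annotation, genes on the opposite strand overlap Jun, Junb and Jund (Junos, Prdx2 and Gm11175), and their reads cannot be told apart.

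The list of 15 Egr, Ier and Nr4a genes also holds Srf, Zfp36, Btg2, Arc and Csrnp1, which belong to none of these families. In all 3 pairs 5 members (33.3%) were higher and 0 lower, against 11.4% and 12.5% of all genes. Of these 5, Srf and Ier5 had an unadjusted p under 0.05 with the block. The other 3 were Egr1, Ier2 and Csrnp1. Egr1, a zinc finger factor of the first wave, had log2 differences of 0.06, 0.38 and 1.12, Ier2 of 0.35, 0.32 and 1.03, and Csrnp1 of 0.52, 0.46 and 0.59. Csrnp1 overlaps Cx3cr1 in the annotation, and their reads cannot be told apart. The orphan nuclear receptor Nr4a1 was at 13.4, 11.6, 26.2 and 4.54 CPM in aSyn-only libraries and 28.7, 25.9 and 12.3 CPM in donors. Its differences were 1.09 and 1.41 in experiments 1 and 4 and -0.02 in experiment 3, with a blocked SE of 0.78. Earlier results of these data already concern this list, so its count is not independent evidence of a direction.

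Kruppel-like factors, zinc finger regulators of macrophage quiescence, were higher in all 3 pairs for 4 of 9 genes (44.4%) and lower for 0. The shares over all genes were 11.4% and 12.5%. These factors had a median blocked log2 difference of 0.23. Klf10, induced by TGF-beta, led them: it was at 41.4, 42.7, 37.4 and 20.1 CPM and then 51.8, 54.7 and 41.9 CPM. The donors of experiments 1 and 3 exceeded every aSyn-only library, and the blocked fold was 1.44 (1.11 to 1.85; adjusted p = 0.748). MAP kinase phosphatases, which switch off ERK, p38 and JNK, were higher in all 3 pairs for 4 of 9 and lower for 2. Dusp2 shows how far experiments differed: 6.04, 13.65, 7.08 and 61.5 CPM in aSyn-only libraries and 7.07, 19.4 and 136 CPM in donors, with both libraries of experiment 4 far above the rest.

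**Figure D2:**
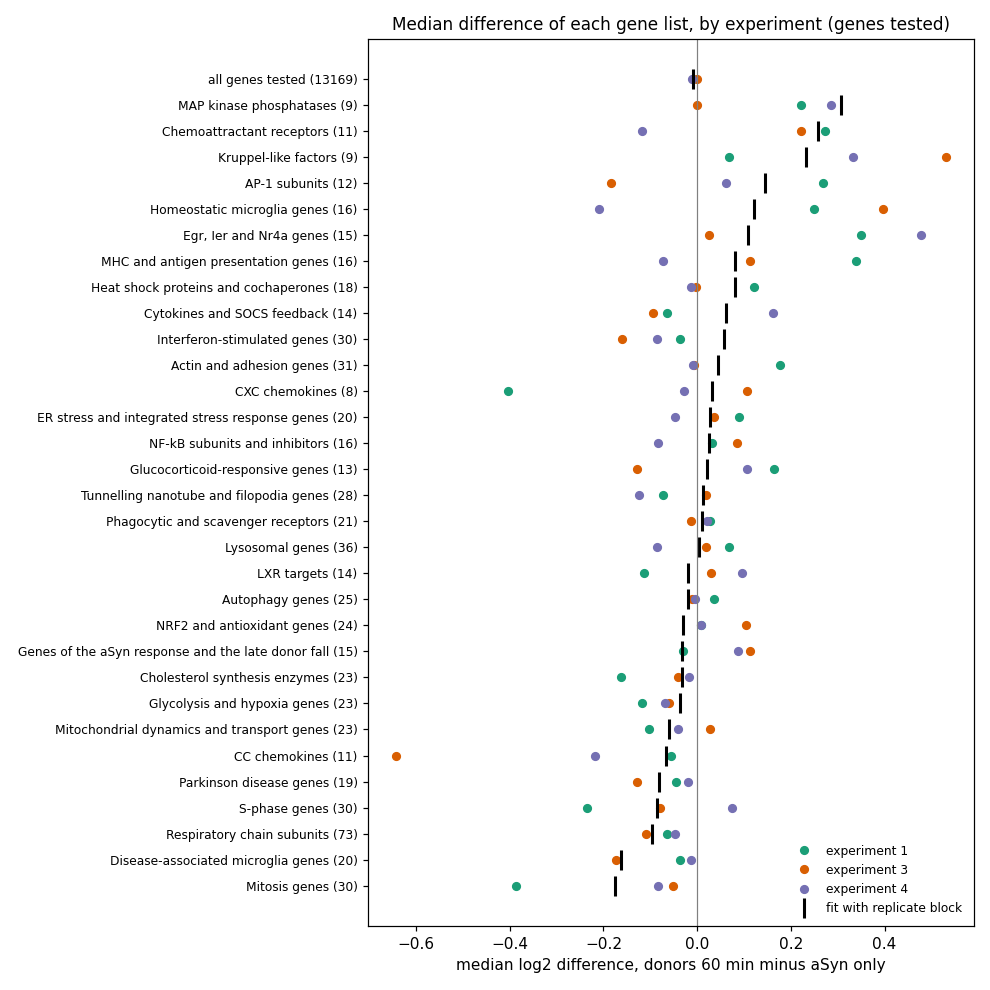
Median log2 difference (donors at 60 min minus aSyn only) over the tested members of each gene list, with the number tested in brackets; coloured points are the 3 same-numbered pairs and the black bar is the fit with the experiment as a block. All-gene medians sit at 0, Respiratory chain subunits lie below 0 in all 3 pairs, and Chemoattractant receptors and Homeostatic microglia genes lie above 0 in experiments 1 and 3 and below in experiment 4.

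Mitochondrial respiratory chain subunits form the longest of the lists. Of 73 tested, 28 (38.4%) were lower and 4 (5.48%) higher in all 3 pairs, against 12.5% and 11.4% of all genes. At an unadjusted p under 0.05 with the block, 11 were lower and 1 higher (2.59% and 2.87% of all genes), against 0 in either direction without the block, and 0 were called in either edgeR fit. The differences were small: the median was -0.06, -0.11 and -0.05 on the log2 scale in experiments 1, 3 and 4. Ndufs6, a subunit of complex I, was at 101, 108, 117 and 73.6 CPM in aSyn-only libraries and 68.2, 104 and 71.2 CPM in donors, so that the difference lay mostly in experiment 1. Ndufb3, another complex I subunit, went the other way in experiment 1, from 63.4 to 116 CPM, and had a blocked log2 difference of 0.43 ± 0.16. With the block, the median of the list stayed between -0.12 and -0.07 whichever of the 7 libraries was left out. Without it, the median was 0.03 without the aSyn-only library of experiment 3 and 0.07 without the donor library of experiment 4.

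Genes of mitochondrial dynamics and transport did not share that pattern, with 3 of 23 lower in all pairs and 1 higher. Tomm20, the receptor of the outer membrane import pore, was lower in the donors of experiments 1 and 3 and higher in that of experiment 4 (log2 -0.15, -0.45 and 0.11). Among Parkinson disease genes 2 of 19 were lower in all pairs and 1 higher. Atp13a2, a lysosomal polyamine transporter whose loss causes a juvenile parkinsonism, was at 247.2, 266.8, 191 and 88.6 CPM in aSyn-only libraries and 183, 168 and 74.5 CPM in donors. The log2 differences were -0.43, -0.18 and -0.25, and the groups overlapped (blocked fold 0.782, 0.622 to 0.984; adjusted p = 0.905).

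Genes of tunnelling nanotubes and filopodia are the list closest to the route by which microglia share aSyn. Of its 28 members, 6 (21.4%) were lower and 0 higher in all 3 pairs, against 12.5% and 11.4% of all genes. The median blocked log2 difference of the list was 0.01. Exoc1 was the member with the smallest p: 33.7, 38.1, 28.7 and 33.0 CPM in aSyn-only libraries and 22.8, 24.6 and 31.0 CPM in donors (blocked fold 0.802, 0.682 to 0.943; adjusted p = 0.748). It belongs to the exocyst, which tethers vesicles to the plasma membrane and is used in nanotube growth. Of the 8 exocyst subunits, 4 were lower in all 3 pairs, and Exoc4, Exoc7 and Exoc8 are named here after their values were seen. Exoc8 was at 29.1, 31.1, 32.5 and 28.7 CPM in aSyn-only libraries and 23.9, 27.3 and 22.8 CPM in donors, with no overlap and log2 differences of -0.28, -0.25 and -0.33. Exoc4 and Exoc7 had blocked log2 differences of -0.25 each.

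Actin and adhesion genes showed no common direction, with 4 of 31 higher and 2 lower in all pairs. Tmsb4x encodes thymosin beta 4, which sequesters actin monomers and was among the most abundant transcripts. It was at 6263, 5444, 5729 and 6915 CPM in aSyn-only libraries and 9131, 8621 and 7127 CPM in donors. All donors stood above all aSyn-only libraries, by a wide margin in experiments 1 and 3 and a narrow one in experiment 4 (blocked fold 1.36, 1.08 to 1.71; adjusted p = 0.751). Capg, a capper of actin filament ends in macrophages, had log2 differences of -0.30, -0.30 and -0.08.

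Chemoattractant receptors and homeostatic microglia genes split by experiment. Cx3cr1, the fractalkine receptor, was at 355, 141, 140 and 22.9 CPM in aSyn-only libraries and 557, 217 and 20.5 CPM in donors. It was higher in the donors of experiments 1 and 3 and slightly lower in that of experiment 4, where its level was far below the others in both groups. Mertk, a receptor for apoptotic cells, differed by -0.17, 0.08 and -0.20. Median differences of the homeostatic list were 0.25, 0.40 and -0.21 in the 3 experiments.

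Disease-associated microglia genes, a programme seen around amyloid plaques, were lower in all 3 pairs for 5 of 20 (25%) and higher for 1. Of all genes, 12.5% were lower and 11.4% higher in all 3 pairs. Spp1, or osteopontin, was at 6052, 4008, 7282 and 1741 CPM and then 4365, 4108 and 1509 CPM, lower in each donor than in its pair but overlapping. Cd63, a tetraspanin of late endosomes and exosomes, was at 1595 and 3286 CPM in the aSyn-only and donor libraries of experiment 1 but at 1395 and 1015 CPM in those of experiment 4. Lysosomal genes were near 0 as a list, with a median of 0.00 and 5 of 36 lower and 1 higher in all pairs. Among autophagy genes Ulk1, the initiating kinase, had log2 differences of 0.44, 0.63 and 0.00, and 4 of 25 members were lower and 2 higher in all pairs.

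Inflammatory lists did not move together. Their counts stand beside 12.5% lower and 11.4% higher in all pairs over all genes. CC chemokines were lower in all pairs for 4 of 11 (36.4%) and higher for 0, as in Ccl6, with log2 differences of -0.28, -0.33 and -0.32. Interferon-stimulated genes were lower in all pairs for 7 of 30 (23.3%) and higher for 0, yet their median was -0.17 without the block and 0.06 with it, so its sign differed between the fits. Cmpk2, an interferon-induced nucleotide kinase, was at 177 to 267.4 CPM and then 129, 137 and 218 CPM, and Irf9 at 100 to 124 CPM and then 132, 115 and 104 CPM. The NF-kB inhibitor Nfkbid had log2 differences of -0.41, -0.32 and -0.45 (adjusted p = 0.905), but it was the only 1 of 16 NF-kB genes lower in all pairs. Il6 and Il12b were seen almost only in experiment 4: Il6 was at 9.34 CPM in the aSyn-only library and 35.5 CPM in the donor, and Il12b at 58.5 and 35.7 CPM.

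Antigen presentation genes held opposite members. Tap2, a subunit of the peptide pump of the class I pathway, was at 26.7, 30.8, 36.2 and 33.3 CPM in aSyn-only libraries and 58.4, 40.1 and 82.5 CPM in donors, with no overlap (blocked fold 1.94, 1.14 to 3.29; adjusted p = 0.804). Nlrc5, the transactivator of class I genes, was at 27.7 to 33.2 CPM and then 20.1 to 25.2 CPM, also with no overlap. Cholesterol synthesis enzymes were mixed as well: Hsd17b7 was at 5.24 to 8.27 CPM in aSyn-only libraries and 4.76 to 5.17 CPM in donors, and Ebp differed by 0.61, 0.31 and -0.32. The serine synthesis enzyme Psat1 had log2 differences of -0.23, -0.39 and -0.09. Mitosis genes were lower in all pairs for 11 of 30 (36.7%) and higher for 3, against 12.5% and 11.4% of all genes. Their median log2 difference was -0.39, -0.05 and -0.08 in experiments 1, 3 and 4. With the block, 0 of them had an unadjusted p under 0.05. Levels were low: Ccna2, or cyclin A2, was at 24.98, 5.69, 8.19 and 6.02 CPM and then 13.5, 6.69 and 5.33 CPM.

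The number of genes past the threshold changed when experiment 4 was left out. In a fit chosen after seeing the data, which left out all libraries of experiment 4 and kept the block, 14 genes were called in edgeR, 11 higher and 3 lower in donors. Experiment 4 did not enter that fit, but it was left out with its values known, so its pair is no independent check. That pair gave the same direction for 4 of the 14 (Igsf9, Lima1, Cdca4 and Srf) and the opposite direction for 10. The same fit without the block called 0.

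**Figure D3:**
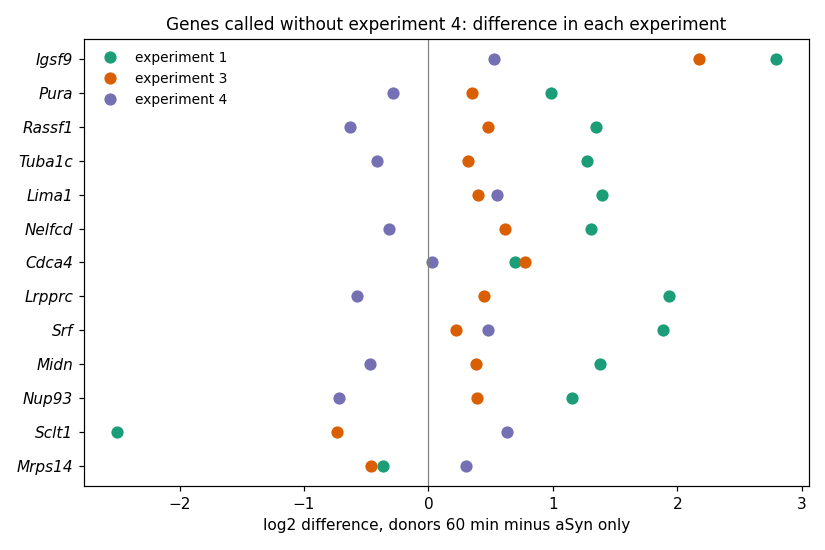
Log2 difference between donors at 60 min and aSyn-only cells in each same-numbered pair, for 13 of the 14 genes called when experiment 4 was left out of the blocked fit. Experiments 1 and 3 lie on one side of 0 for every gene because the genes were chosen there; experiment 4 lies on the other side for all of those plotted but Igsf9, Lima1, Cdca4 and Srf.

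Lrpprc, which stabilises mitochondrial messenger RNA, shows the contrast. It was at 46.1, 76.7 and 41.6 CPM in the aSyn-only libraries of experiments 1, 3 and 4 and at 177, 105 and 27.9 CPM in the matching donors. The blocked fit without experiment 4 gave a log2 difference of 1.29 ± 0.27 (adjusted p = 0.0446), and with experiment 4 in the blocked fit it was 0.78 (adjusted p = 0.748). Pura, a single-strand nucleic acid binding protein, Rassf1, a tumour suppressor on microtubules, Tuba1c, an alpha tubulin, Nelfcd, a subunit of the factor that pauses RNA polymerase II, Midn, a proteasome adaptor, and Nup93, a nuclear pore scaffold, had the same shape. Their experiment 4 differences lay between -0.72 and -0.28.

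The 3 lower genes included Sclt1 and Mrps14. Sclt1, a protein of centriole appendages, was at 8.99, 5.40, 3.18 and 6.72 CPM and then 1.46, 1.85 and 10.50 CPM, and Mrps14, a mitochondrial ribosomal protein, differed by -0.36, -0.46 and 0.30.

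The time course places the leading genes. Donors at 60 min were compared with donors at 0, 30 and 150 min, where aSyn-only libraries play no part, and 0 of 13169 genes (0%) were called in any of these with or without the block. DESeq2 called 1 gene against 0 min, Mgp, and 0 against the other times. At an unadjusted p under 0.05 with the block there were 377, 315 and 887 of 13169 genes. With no true difference a share of 0.05 would pass on average. The counts of 377 and 315 are below that share, and 887 is above it. What the co-culture at 0 min consisted of is not described in the labels' protocols.

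**Figure D4:**
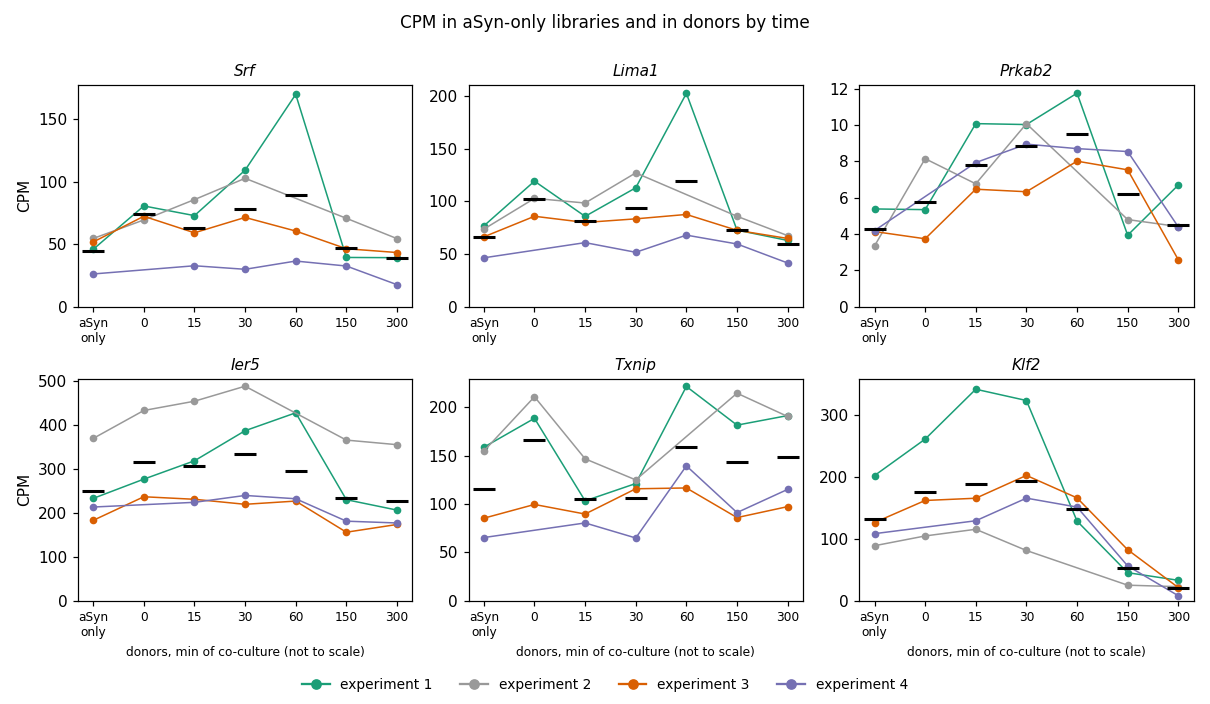
CPM of 6 genes in aSyn-only libraries and in donors from 0 to 300 min of co-culture (the time axis is not to scale); lines join libraries of an experiment, skipping times without one, and black bars are means. Prkab2 donors at 15, 30 and 60 min lie between 6.33 and 11.8 CPM, above all 4 aSyn-only libraries (up to 5.38 CPM), and the mean of Klf2 is 148.8 CPM at 60 min and 21.3 CPM at 300 min.

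Donors at 0 min came from experiments 1 to 3 and donors at 60 min from experiments 1, 3 and 4. The means over time, here and for Prkab2, therefore cover different experiments and are not paired. Srf averaged 44.6 ± 12.8 CPM in aSyn-only libraries (SD, n = 4) and 74.1 ± 5.81 CPM in donors at 0 min (n = 3). It was at 62.6 ± 22.7 CPM at 15 min (n = 4) and 78.3 ± 36.3 CPM at 30 min (n = 4). The mean at 60 min, 89.0 ± 71.1 CPM (n = 3), was carried by experiment 1, and at 150 and 300 min the level was 47.3 ± 16.6 and 38.7 ± 15.4 CPM (n = 4 each). Against 150 min the blocked log2 difference of Srf at 60 min was 0.89 (adjusted p = 0.236), and of Lima1 0.74 (adjusted p = 0.236).

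Prkab2 was at 4.26 ± 0.840 CPM in aSyn-only libraries, 5.74 ± 2.23 CPM at 0 min, 7.81 ± 1.64 CPM at 15 min, 8.84 ± 1.76 CPM at 30 min and 9.49 ± 1.99 CPM at 60 min. It was at 6.20 ± 2.19 CPM at 150 min and 4.52 ± 1.69 CPM at 300 min. The mean at 300 min was close to that of aSyn-only cells, but its libraries were more widely spread. The spread between libraries does not separate 15, 30 and 60 min from each other. Ier5 differed from 150 min by 0.59 (blocked adjusted p = 0.156) and Txnip from 30 min by 0.74 (adjusted p = 1), where it was at 107 ± 28.1 CPM.

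The 15 genes tied in earlier results of these data to the aSyn response, or to a late fall in donors, were then read in the donors at 60 min, and 0 of them were called against aSyn-only cells. Adgre5, the adhesion receptor CD97, was at 2.41 to 3.77 CPM in untreated cells, 69.4 to 88.5 CPM in aSyn-only cells and 85.5 to 94.1 CPM in donors. Donors and aSyn-only cells differed in Adgre5 by 0.08 ± 0.17 on the log2 scale with the block. Klf2, a Kruppel-like factor, was at 202, 88.9, 126 and 108 CPM in aSyn-only libraries and 129, 166 and 151 CPM in donors, against 13.9 to 35.0 CPM in untreated cells. Its donor levels at 60 min lay within the aSyn-only range, and its blocked log2 difference from donors at 150 min, 52.3 ± 23.9 CPM, was 1.51 (adjusted p = 0.156).

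**Figure D5:**
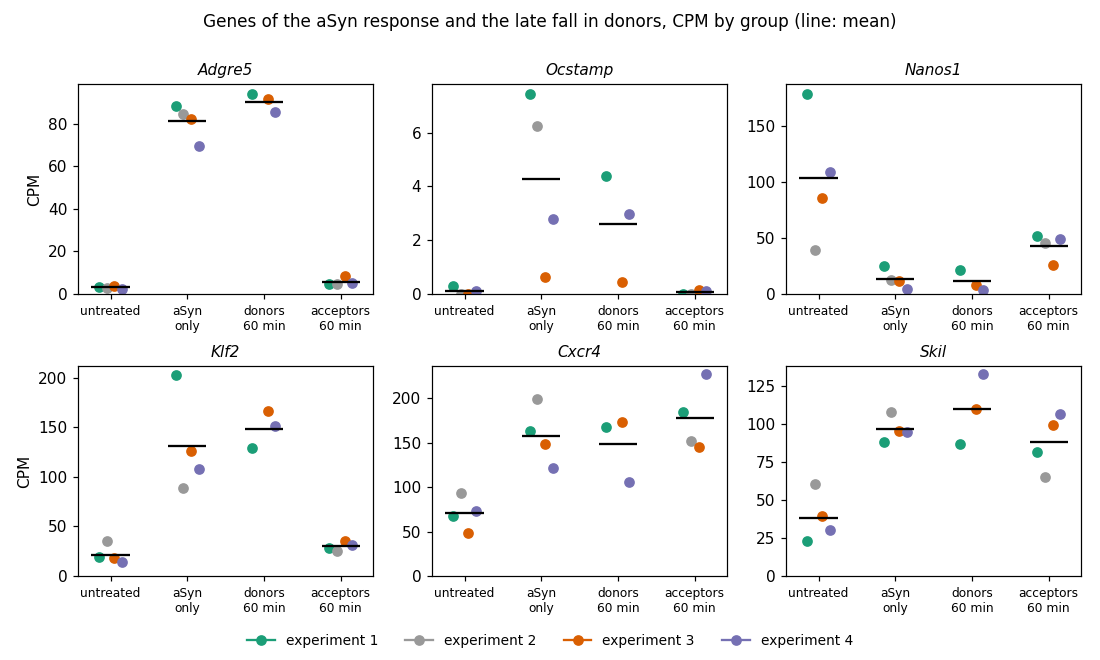
CPM of 6 genes in untreated, aSyn-only, donor (60 min) and acceptor (60 min) libraries, coloured by experiment, with a line at each mean. Adgre5 and Klf2 are high in both aSyn-loaded groups and low in the other 2; Nanos1 is low in both loaded groups.

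Most other members of that list overlapped between the groups. Ocstamp, a membrane protein of cell fusion, was at 7.44, 6.25, 0.636 and 2.79 CPM in aSyn-only libraries and 4.38, 0.440 and 2.98 CPM in donors. Nanos1, an RNA-binding repressor, was at 24.8, 12.15, 11.8 and 4.10 CPM and then 21.7, 8.27 and 3.84 CPM, where untreated cells were at 39.3 to 179 CPM. The chemokine receptor Cxcr4 was at 122 to 198 CPM and then 106 to 173 CPM, the SMAD repressor Skil at 88.6 to 108 CPM and then 86.7 to 133 CPM, and the mitotic brake Wee1 at 11.2 to 17.5 CPM and then 11.97 to 16.5 CPM. In 2 of the 15, Mtmr10 and Cdca7, all donors lay below all aSyn-only libraries, as did 1.24% of all genes. Mtmr10, a relative of phosphoinositide phosphatases, was at 33.3 to 40.6 CPM in aSyn-only libraries and 24.5 to 32.7 CPM in donors (blocked fold 0.807, 0.632 to 1.03). Cdca7, a cell cycle gene, was scarce, at 0.663 to 1.14 CPM and then 0.307 to 0.440 CPM (blocked fold 0.465, 0.194 to 1.11). Treml4, a TREM-like receptor, was higher in the donor of every pair, but at 0.0737, 1.35, 0.716 and 0.175 CPM and then 0.845, 2.29 and 1.33 CPM the groups overlapped. Hes5, a Notch target, was at 0, 0, 0 and 0.175 CPM and then 0.307, 0.528 and 0.0784 CPM, under 1 CPM in every library.

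Acceptors at 60 min of experiments 1, 3 and 4 came out of the same co-cultures as the donors. The acceptor library of experiment 2 had no donor library at 60 min beside it here. Donors differed from acceptors in 55 of 13169 genes, 44 higher (0.334%) and 11 lower. With the block, 882 genes (6.7%) differed, 477 higher (3.62%) and 405 lower (3.08%). Adgre5 was at 4.46 to 8.64 CPM in acceptors, a log2 difference of 3.98 (adjusted p = 5.6e-13), and Klf2 at 25.4 to 35.4 CPM, a difference of 2.30 (adjusted p = 0.00401). Lima1 was also higher in donors, by 1.31 on the log2 scale (adjusted p = 0.0384), with acceptors at 32.1 to 64.9 CPM. Lima1 was not among the genes called when the donor library of experiment 1 or the acceptor library of experiment 1 or 4 was left out, while Adgre5 and Klf2 were called in each of those fits. Srf and Prkab2 passed the threshold against acceptors only with the block (adjusted p = 0.00987 and 0.0135, against 0.449 and 0.123 without it), with acceptors at 29.1 to 60.1 CPM and 3.08 to 6.02 CPM.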

How the data were processed

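RNA of 54 libraries was analysed, of which 7 carry the comparison described. The authors deposited whole-number read counts per gene symbol for 16632 genes, per the file headers, and a normalized signal that was not used here. The submitters' processing notes name STAR, Partek, DESeq2 and the build mm10, with no role; counter, annotation and strand are not given in the sources used here. Groups and the replicate numbers, called experiments here, were taken from titles. Counts were tested with edgeR 4.0.16 (R 4.3.3): TMM scaling, a low-count filter (filterByExpr, minimum 10), and quasi-likelihood F tests of contrasts among the means of all 14 groups. Same-numbered untreated libraries were summed, which left 52 units. A call needed a p under 0.05 after Benjamini-Hochberg adjustment over 13169 genes. Standard errors were derived from the fold change and its F statistic.

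The labels share experiment numbers across groups. Deviations of same-numbered libraries from their group means correlated at 0.57, 0.39 and 0.70 in experiments 1, 3 and 4, so the numbers were taken to pair the libraries, and the fit with the experiment as a block is given beside the unblocked one. Pair differences use log2 CPM with a prior count of 2. Library totals of 11571623 to 13939113 set the counting error of each value, which is included in the spread between libraries.

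Genes were named by rule: genes called, the 12 leading genes in each direction, the member of each of 31 lists with the smallest blocked p each way, and members of the AP-1, Egr, Ier and Nr4a and aSyn response lists. The groups, the lists and the rule were chosen with earlier results of these data known. Promoters are from RefSeq (GRCm38.p6) and gene positions from GENCODE on the same build. The test was checked on simulated data. Alternatives were the block, size factors by median of ratios, DESeq2 1.42.0, no filter, only the groups compared, Rn45s left out, experiment 4 left out, and each library left out. A few results that the rule would name are not reported here.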

Additional observations from a re-analysis of the deposited data

Results flagged for a closer look

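In 10 of 93 results tested among the 4 aSyn-only libraries, 1 library stood apart from the other 3 by the criterion for a lone extreme value. Chance alone marks about 1 in 20 where values are normally distributed. The 93 results share the same 4 libraries and are not independent. The aSyn-only library of experiment 4 was the one in 7 of them. It was highest for Il12b (58.5 CPM), Dusp2 (61.5 CPM), Csrnp1 (16.8 CPM), Il6 (9.34 CPM), Hes5 (0.175 CPM) and the summed neutrophil markers (7.68 CPM), and lowest for the summed microglia markers (5292 CPM). The Hes5 value is 2 counts against 0 in each of the other aSyn-only libraries, where any count at all would be marked. Library 1 was highest for Ccna2 (25 CPM) and Fosb (22.6 CPM), and library 3 for Fosl2 (65.3 CPM). The donors, with 3 libraries, were too few for this criterion.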

How the results depend on the processing

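The number of genes called between donors at 60 min and aSyn-only cells was 0 with the replicate block, median-of-ratios size factors, DESeq2, no filter, only the groups compared, Rn45s left out, or experiment 4 left out. It was 1 (Oaz1-ps, a pseudogene) with only the groups compared and the block, and 14 without experiment 4 with the block, a fit chosen after seeing the data. Over all fits that left libraries out it was 0 to 14, and with a single library left out 0 to 2, the 2 being Srf and Lima1 without the donor library of experiment 3, with the block. Against donors at 0, 30 and 150 min the count was 0 throughout, except 1 (Mgp) in DESeq2 against 0 min. Against acceptors the 55 calls became 882 with the block, 122 in DESeq2 and 2 (Adgre5 and Klf2) with only the groups compared. Leaving out 1 library gave 17 to 42: 17 or 18 without the acceptor library of experiment 4 or 1, 35 without that of experiment 3, and 20 or 24 without the donor library of experiment 1 or 4. The cause of these shifts was not tested.

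Of 82 named genes, 62 showed no reversal of sign in those of the 23 alternatives that tested them. Some genes were filtered out or had no p in some alternatives, which left 1872 results. With the replicate block, the log2 difference of Egr1 was 0.19 (0.45 with only the groups compared), against -0.19 without it, that of Wee1 was -0.0314, and that of Cxcr4 was 0.0136 with only the groups compared. Without experiment 4, with the block, Adgre5 was at -0.0196, Egr1 at 0.0534 and Wee1 at -0.0460. Leaving out 1 library with the block also changed signs. Without aSyn-only library 1 Egr1 was at 0.51, Fos at 0.0332 and Wee1 at -0.104, without 2 Cxcr4 at 0.0342, without 3 Adgre5 at -0.0347, Wee1 at -0.108 and Fos at 0.164, and without 4 Cmpk2 at 0.125 and Il12b at 4.11. Without donor library 1 Cd63 was at -0.0106, Fos at 0.143 and Jund at -0.0371, without 3 Egr1 at 0.407, and without 4 Cxcr4 at 0.0786, Il6 at -2.30, Klf2 at -0.0424 and Wee1 at -0.128. Without the block, leaving out 1 library gave ranges that cross 0 for Ccl6 (-0.57 to 0.0646), Ccna2 (-0.90 to 0.36), Cx3cr1 (-0.48 to 1.39), Cxcr4 (-0.21 to 0.11), Dusp2 (-0.74 to 2.59), Egr1 (-0.78 to 0.27), Fos (-0.22 to 0.14), Ier5 (-0.12 to 0.50), Igsf9 (-0.00687 to 2.37), Il12b (-10.57 to 10.29), Il6 (-7.96 to 6.76), Jund (-0.0664 to 0.53), Nanos1 (-1.13 to 0.27), Ndufb3 (-0.00493 to 0.72), Sclt1 (-1.87 to 0.0317) and Wee1 (-0.0211 to 0.26). For Il6 and Il12b a group was then left near 0 counts, so these values measure no fold. None of these genes was called in the main comparison.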
